A study of Homo sapiens with 12 samples.

Results

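The nuclear genes of oxidative phosphorylation (OXPHOS) were followed in 2 leukemia cell lines, MOLM-13 and THP-1, with and without Jiyuan oridonin A (JOA), an ent-kaurene diterpenoid. Members were chosen by gene symbol alone. A row of the expression table was taken if its symbol began with NDUFA, NDUFB, NDUFC, NDUFS, NDUFV, UQCR, COX4, COX5, COX6, COX7, COX8 or ATP5, or was SDHA, SDHB, SDHC, SDHD or CYC1, and the NDUFAF assembly factors were left out. This gave 92 of the 20030 rows, of which 38 were assigned to complex I, 4 to complex II, 10 to complex III, 19 to complex IV and 21 to complex V. Despite their names, NDUFA4 and NDUFA4L2 were counted with complex IV, where the NDUFA4 protein is now placed.

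Both lines are human acute monocytic leukemia lines with a rearranged MLL gene. MOLM-13 cells carry the internal tandem duplication of the kinase gene FLT3, while THP-1 cells have wild-type FLT3. MOLM-13 cells were given 0.5 μM JOA and THP-1 cells 2 μM for 48 h, and the control cells of each line received the solvent DMSO. This time is the one in the labels and methods, and a legend of the study gives a longer one. Each of the 4 groups had 3 mRNA-seq libraries. Line and dose cannot be told apart in treated cells. Nothing in the labels says that libraries of a group came from separate cultures, so p-values measure only the spread between these samples.

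Oxidative phosphorylation makes most of the ATP of a respiring cell. Complexes I and II pass electrons from NADH and succinate to ubiquinone, complex III passes them on to cytochrome c, and complex IV delivers them to oxygen. Complexes I, III and IV pump protons across the inner mitochondrial membrane, and complex V, the ATP synthase, uses the gradient to make ATP. Complexes I, III, IV and V are assembled from subunits encoded in the nucleus and in mitochondrial DNA. The mitochondrially encoded subunits were not analysed here.

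The authors deposited FPKM values, that is fragments per kilobase of transcript relative to the mapped fragments of a library, so that levels can be compared between genes per length. The sums over all genes lay between 291127 and 325023 FPKM per library, and total read depth is unknown. Libraries of one line correlated at r = 0.988 to 0.996 across genes and libraries of different lines at 0.867 to 0.880 on the log2 scale, where genes are not independent replicates. Of 9 myeloid markers, 8 had a mean of at least 1 FPKM in each line, and CD14, at 0.0743 to 0.978 FPKM, did not. The summed level of the 9 was at least 1073 FPKM in every library, most of it from LYZ at 755 to 3292 FPKM. The summed markers of B cells reached 0.168 FPKM and those of erythroid cells 0.209 FPKM, those of T cells 3.79 FPKM in MOLM-13 and 0.0257 FPKM in THP-1, those of epithelial cells 1.79 and 2.52 FPKM, and those of fibroblasts 0.300 and 1.04 FPKM.

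The subunit genes were among the more abundant transcripts of both lines. In control MOLM-13 cells, 84 members had a mean of at least 0.1 FPKM and their median was 84.4 FPKM, against 6.57 FPKM for all genes above that level. In control THP-1 cells the median was 71.5 FPKM for 86 members and 5.49 FPKM for all genes. A mean of at least 10 FPKM was reached by 78 members in each line. Together the members made up between 3.13% and 3.50% of all FPKM in the 12 libraries.

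Complex IV subunits had the highest typical level. The 11 common subunits of complex IV had a median of 228 FPKM in control MOLM-13 cells and 234 FPKM in control THP-1 cells. The 17 structural subunits of complex V had medians of 141 and 136 FPKM, those of complex III 84.2 and 63.9 FPKM, those of complex I 64.2 and 60.9 FPKM, and those of complex II 56.1 and 52.4 FPKM. Subunits of one complex are present in fixed ratios in the enzyme, but their FPKM values spread widely. In control MOLM-13 cells the highest subunit gene of complex I was NDUFB9 with 548 FPKM, 69.4-fold above the lowest, NDUFV3. In control THP-1 cells the order of complex I ran from NDUFS7 with 4.58 FPKM to NDUFS6 with 288 FPKM. In complex V it ran from ATP5MC3 to ATP5F1E in both lines, from 33.1 to 497 FPKM in MOLM-13 and from 42.7 to 756 FPKM in THP-1.

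**Figure D1:**
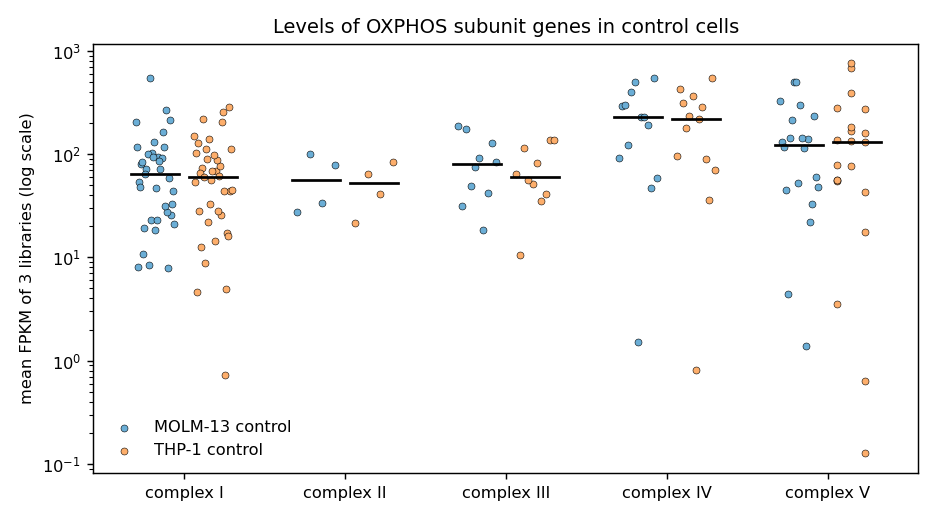
Mean FPKM of each OXPHOS subunit gene in control cells (vertical axis, log scale) by complex, with 1 point per gene, MOLM-13 in blue and THP-1 in orange, and a black bar at the median. Genes with a mean under 0.1 FPKM are not drawn. Complex IV sits highest in both lines, and genes of one complex spread over more than a factor of 10, except in complex II.

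Several complex IV subunits exist as a common form and a form known from muscle, lung or testis. Of these alternative forms, COX4I2, COX6A2, COX7A1, COX7B2 and COX8C were listed at 0 in all 12 libraries, and COX6B2 was listed at 0 in 8 libraries and reached at most 0.0799 FPKM. Their common counterparts were abundant. In control MOLM-13 cells COX4I1 was at 101, 97.7 and 78.1 FPKM and COX6A1 at 226, 207 and 251 FPKM. NDUFA4L2, the inducible relative of NDUFA4, was low, with 1.09, 2.62 and 0.874 FPKM in control MOLM-13 cells and 0.867, 1.08 and 0.500 FPKM in control THP-1 cells, values that overlap. NDUFA4 itself had 55.0 to 62.8 FPKM and 66.6 to 71.7 FPKM in the same libraries.

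The rotor ring of the ATP synthase is built from one protein, subunit c, that 3 genes encode. ATP5MC1 gave the largest share of their summed FPKM in each of the 12 libraries, between 48.8% and 60.6%, followed by ATP5MC2 and then ATP5MC3. The remaining low members were read-through or copy rows. ATP5MGL, a copy of ATP5MG, did not exceed 0.203 FPKM, and NDUFC2-KCTD14, a read-through of NDUFC2 and its neighbor, did not exceed 0.897 FPKM. UQCRHL, an intronless copy of the complex III hinge gene UQCRH, had between 0.174 and 0.272 times its level. The 2 genes are near-identical, so how reads were split between them is uncertain, and the same holds for the read-throughs ATP5MF-PTCD1 and NDUFC2-KCTD14.

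Nuclear OXPHOS genes are known targets of the transcription factors NRF1 and GABP (NRF-2), and YY1 has also been tied to them. RefSeq promoters on GRCh38.p14 matched 73 members, and the 250 bases before the annotated start were searched on both strands. The NRF1 core, GCGCA and GCGC with any 1 base between them, was in 15 of 73 member promoters (20.5%), against 5.07% of all 35116 promoters and 10.5% of the 10262 promoters of genes with a mean of at least 0.1 FPKM here. The GABP motif CCGGAAG was in 17 (23.3%), against 8.52% and 16.4%. The YY1 motif AAGATGGC was in 1 (1.37%), against 1.36% and 1.87%. At least 1 of the 3 motifs was in 30 member promoters (41.1%), against 13.9% and 26.4%. These are descriptions of letters in a fixed window and not of binding.

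The 5 promoters below belong to genes on which the comparisons turn. NDUFB1, ATP5ME and COX5B had the most negative log2 fold changes in THP-1 after JOA among members with a promoter entry, though none was called. SDHD and UQCRH differed between the lines in opposite directions. Capitals mark a motif, either the NRF1 core or CCGGAAG, which reads CTTCCGG on the other strand. Each sequence is the 250 bases before the start, 5′ to 3′ along the strand of the gene, from RefSeq on GRCh38.p14. SDHD holds an NRF1 core and a GABP motif, ATP5ME holds 2 NRF1 cores, COX5B and UQCRH hold a GABP motif each, and NDUFB1 holds none of the letters searched.
SDHD, chr11:112086623-112086872, plus strand: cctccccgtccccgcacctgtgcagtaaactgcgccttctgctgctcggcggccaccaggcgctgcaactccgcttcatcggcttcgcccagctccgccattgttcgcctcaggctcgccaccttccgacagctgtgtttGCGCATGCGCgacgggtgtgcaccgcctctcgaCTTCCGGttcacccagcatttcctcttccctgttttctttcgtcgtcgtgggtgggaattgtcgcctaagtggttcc
UQCRH, chr1:46303448-46303697, plus strand: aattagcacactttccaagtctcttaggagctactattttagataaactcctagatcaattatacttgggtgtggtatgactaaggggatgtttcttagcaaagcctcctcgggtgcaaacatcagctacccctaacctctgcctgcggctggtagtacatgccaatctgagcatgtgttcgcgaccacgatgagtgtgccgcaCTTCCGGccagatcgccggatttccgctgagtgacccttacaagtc
ATP5ME, chr4:674277-674526, minus strand: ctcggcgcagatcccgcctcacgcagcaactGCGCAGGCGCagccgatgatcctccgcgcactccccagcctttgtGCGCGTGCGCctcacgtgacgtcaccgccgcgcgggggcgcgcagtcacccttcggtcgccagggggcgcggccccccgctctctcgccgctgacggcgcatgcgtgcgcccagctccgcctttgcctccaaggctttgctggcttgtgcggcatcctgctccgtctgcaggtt
COX5B, chr2:97645812-97646061, plus strand: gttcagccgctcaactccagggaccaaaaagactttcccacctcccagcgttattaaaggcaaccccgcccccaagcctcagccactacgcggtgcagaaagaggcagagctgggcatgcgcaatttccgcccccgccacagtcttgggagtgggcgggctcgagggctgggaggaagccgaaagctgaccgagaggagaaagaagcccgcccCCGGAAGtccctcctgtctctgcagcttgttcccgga
NDUFB1, chr14:92121707-92121956, minus strand: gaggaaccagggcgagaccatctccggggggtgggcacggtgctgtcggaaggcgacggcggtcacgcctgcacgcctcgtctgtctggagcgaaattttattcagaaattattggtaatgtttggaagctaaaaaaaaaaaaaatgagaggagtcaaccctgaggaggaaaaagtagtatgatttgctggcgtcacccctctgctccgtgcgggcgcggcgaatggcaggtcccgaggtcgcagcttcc

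The control cells of the lines were compared first, to learn which parts of the machinery differ without drug. Genes with a mean of at least 0.1 FPKM over the libraries compared were tested by limma on log2(FPKM + 0.1), and a gene was called if its Benjamini-Hochberg adjusted p over all genes was under 0.05 and its log2 fold change at least 0.58 in size. Fold changes below are on this scale and understate the change of low genes. Of 85 members tested, 5 were higher and 14 lower in THP-1 than in MOLM-13. Over all 12635 genes tested, 25% were called higher and 19% lower, while the shares of the members were 5.88% and 16.5%. The median log2 fold change of the members was -0.03 and that of all genes 0.06. The read-through NDUFC2-KCTD14 had the largest positive value, 2.30, but it was at 0.0974, 0.0504 and 0.0501 FPKM in MOLM-13 and at 0.897, 0.516 and 0.758 FPKM in THP-1, and passed the filter on low values through THP-1 alone. By adjusted p alone, 29 members were higher and 30 lower, with 71.2% of all genes passing.

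Apart from this low read-through, the largest differences were in 4 genes of chromosome 8. CYC1, the cytochrome c1 of complex III that hands electrons to cytochrome c, had 202, 187 and 179 FPKM in control MOLM-13 cells and 61.5, 65.2 and 64.9 FPKM in control THP-1 cells. The highest THP-1 library was far below the lowest MOLM-13 library, and the log2 fold change was -1.56 ± 0.06 (SE, limma adjusted p = 2.76e-07). UQCRB, the ubiquinone-binding protein of complex III, had 31.7, 32.0 and 30.0 FPKM against 10.9, 10.2 and 10.7 FPKM, a log2 fold change of -1.55 ± 0.06 (SE, adjusted p = 1.94e-07). NDUFB9, an accessory subunit of the membrane arm of complex I, had 567, 527 and 550 FPKM against 209, 206 and 247 FPKM, a log2 fold change of -1.32 ± 0.08 (SE, adjusted p = 3.03e-06). COX6C, a complex IV subunit, had 187, 179 and 213 FPKM against 88.1, 91.4 and 90.7 FPKM, a log2 fold change of -1.09 ± 0.07 (SE, adjusted p = 4.00e-06). In each of these genes the groups were well separated, and in JOA-treated cells the log2 fold changes were -1.74, -1.65, -1.43 and -1.24 in the same order.

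The rest of chromosome 8 was lower in THP-1 as well. Its 412 other tested genes had a median log2 fold change of -1.29, and 81.8% of them were called lower. The 4 members lie beyond 45 Mb, where the median of all 270 genes was -1.40, and below 45 Mb it was -1.11 for 146 genes. On the other chromosomes the median of all genes ran from -0.47 on chromosome X to 0.41 on chromosome 1. The 3 members on chromosome X were also lower by adjusted p. Among them COX7B, a complex IV subunit, had 378, 363 and 462 FPKM in MOLM-13 and 241, 229 and 232 FPKM in THP-1 (log2 fold change -0.77 ± 0.10 SE, limma adjusted p = 0.000136), and NDUFA1 and NDUFB11 had log2 fold changes of -0.47 and -0.43, under the fold threshold. With chromosome 8 left out before the fit, a choice made after the data were seen, 5 members were higher and 10 lower of 81. Of 12219 genes in that fit 3120 were higher and 2061 lower, and the members' median was 0.00. The part of this chromosome-wide difference in the members' values was not tested.

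**Figure D2:**
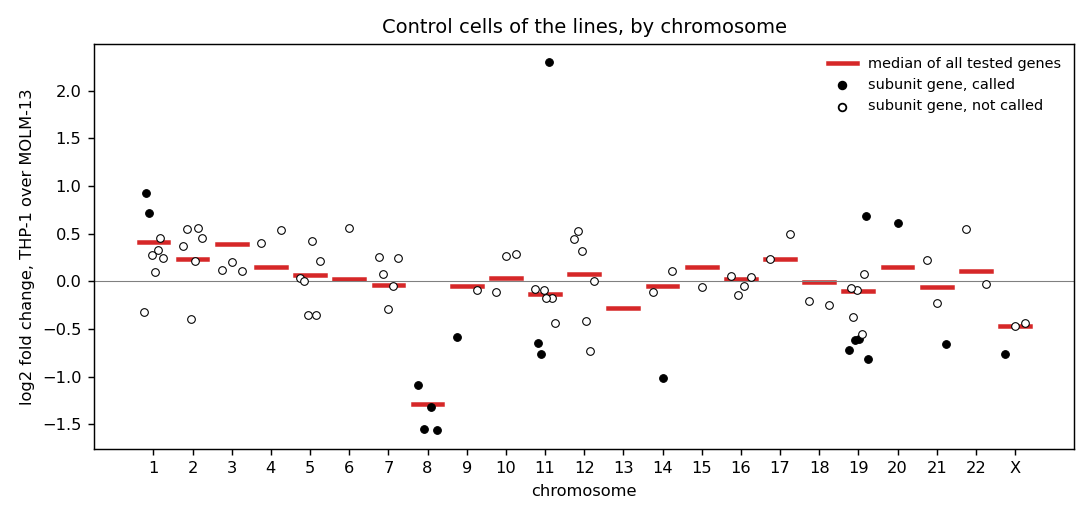
log2 fold change of control THP-1 over control MOLM-13 cells (vertical axis) for each tested OXPHOS subunit gene, by chromosome. Filled points passed the call, open points did not, and the red bar is the median of all tested genes of the chromosome. The 4 members on chromosome 8 lie around its median of -1.29, far below every other chromosome's bar.

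Outside chromosome 8, complex I differed subunit by subunit. The core subunits of its hydrophilic arm went in different directions. NDUFV1, which holds the flavin that accepts electrons from NADH, had 96.1, 93.6 and 92.9 FPKM in MOLM-13 and 53.5, 58.2 and 55.3 FPKM in THP-1, without overlap (log2 fold change -0.76 ± 0.06 SE, limma adjusted p = 6.32e-06). NDUFS7, which carries the last iron-sulfur cluster before ubiquinone, was low in both lines and lower in THP-1, with 8.71, 7.60 and 8.03 against 4.18, 4.62 and 4.95 FPKM (log2 fold change -0.81 ± 0.09 SE, adjusted p = 7.42e-05). NDUFS1, the largest core subunit, was higher in THP-1 by a log2 fold change of 0.45, with adjusted p = 0.000117 by limma, under the fold threshold. Of the 7 core subunits 2 were called, both lower. Of all 30 accessory subunits, with NDUFB9 of chromosome 8 included, 1 was called higher, NDUFA3, and 4 lower, which were NDUFB9, NDUFV3, NDUFA7 and NDUFA8.

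Complex II, which oxidizes succinate and has only nuclear subunits, had 1 called member. SDHD, a membrane anchor, had 101, 92.4 and 107 FPKM in MOLM-13 and 62.1, 65.9 and 63.9 FPKM in THP-1 (log2 fold change -0.64 ± 0.07 SE, limma adjusted p = 5.17e-05). The other anchor, SDHC, was 0.28 higher on the log2 scale in THP-1 and the catalytic SDHA 0.35 lower, both by adjusted p and under the fold threshold. SDHB, which carries the iron-sulfur clusters, had 77.6, 76.4 and 81.1 FPKM against 78.6, 85.6 and 86.8 FPKM, which overlap.

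Complex III had called members in both directions. Beside CYC1 and UQCRB, the Rieske iron-sulfur protein UQCRFS1 was lower in THP-1, with 180, 165 and 184 FPKM against 110, 114 and 121 FPKM (log2 fold change -0.62 ± 0.07 SE, limma adjusted p = 6.41e-05). The hinge subunit UQCRH was higher, with 91.2, 80.5 and 81.0 FPKM against 137, 137 and 139 FPKM (log2 fold change 0.71 ± 0.06 SE, adjusted p = 2.18e-05), and its copy UQCRHL went the same way. The core protein UQCRC1 did not separate the lines, with 135, 120 and 130 FPKM against 138, 143 and 134 FPKM. The ratio of CYC1 to UQCRC1 was 1.38 to 1.56 in control MOLM-13 cells and 0.447 to 0.484 in control THP-1 cells.

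Complex IV had 2 called members, COX6C and COX7B, both lower. The catalytic core of this complex is encoded in mitochondrial DNA, and the nuclear subunits around it had differences of either sign. COX5B, with 295, 270 and 314 FPKM in MOLM-13 and 434, 408 and 441 FPKM in THP-1, was higher by adjusted p with a log2 fold change of 0.55 ± 0.08 (SE, limma adjusted p = 0.000252), and COX7A2 had 0.56. COX8A was lower with -0.44. COX4I1 and COX5A, which are added early in assembly, overlapped between the lines, with log2 fold changes of 0.05 and -0.06 whose signs changed with the library left out or the scaling.

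Complex V was the one complex with a higher summed level in THP-1. Its 21 genes summed to 3275, 2898 and 3178 FPKM in control MOLM-13 cells and to 3725, 3664 and 3640 FPKM in control THP-1 cells, without overlap. A sum weighs abundant genes most, and the median gene of complex V overlapped, at 111 to 133 FPKM against 126.9 to 127.3 FPKM. Subunit ATP5F1E, the epsilon subunit of the F1 stalk, had 516, 438 and 538 FPKM against 762, 766 and 739 FPKM (log2 fold change 0.61 ± 0.09 SE, limma adjusted p = 0.000378). The catalytic ATP5F1B had 517, 471 and 501 FPKM against 682, 688 and 660 FPKM (log2 fold change 0.45 ± 0.07 SE, adjusted p = 0.000467), under the fold threshold. Its partner in the head, ATP5F1A, was 0.21 lower on the log2 scale, with 337, 311 and 327 FPKM against 276, 285 and 281 FPKM. ATP5F1D, the delta subunit, was called lower, with 133, 135 and 124 FPKM against 80.7, 79.1 and 77.6 FPKM. The c-ring genes ATP5MC2 and ATP5MC3 were 0.52 and 0.37 higher by adjusted p, and ATP5MC1 overlapped. ATP5IF1, the inhibitor of ATP hydrolysis, was 0.32 lower. ATP5S, now named DMAC2L and not a subunit, was called lower at 1.38, 1.40 and 1.39 against 0.574, 0.704 and 0.645 FPKM.

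**Figure D3:**
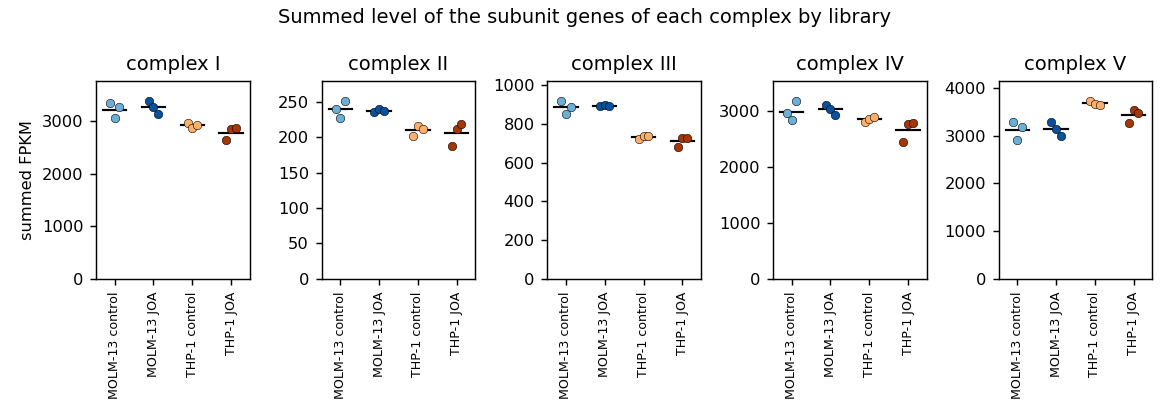
Summed FPKM over the subunit genes of each complex (vertical axis, from 0) in each library, with 1 point per library, a bar at the group mean, and 3 libraries per group. In control cells the sum of complex V is higher and that of complex III lower in THP-1 than in MOLM-13. The sums of complex IV overlap between the lines.

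The summed levels of the other complexes were lower in THP-1 or overlapped. Complex III summed to 917, 851 and 888 FPKM in control MOLM-13 cells and to 721, 735 and 738 FPKM in control THP-1 cells. This sum includes CYC1 of chromosome 8, with 202, 187 and 179 FPKM against 61.5, 65.2 and 64.9 FPKM. The median gene of complex III did not overlap either, at 76.3 to 82.0 FPKM against 57.3 to 61.4 FPKM. Complex I summed to 3338, 3049 and 3259 FPKM against 2961, 2873 and 2928 FPKM, and complex II to 240, 228 and 251 FPKM against 202, 216 and 212 FPKM, without overlap in either. The complex I sum includes NDUFB9 of chromosome 8, with 567, 527 and 550 FPKM against 209, 206 and 247 FPKM. The median gene of complex I overlapped, at 59.5 to 65.0 FPKM against 57.8 to 62.8 FPKM. The part of CYC1 and NDUFB9 in the sums was not tested. Complex IV summed to 2838 to 3186 FPKM against 2814 to 2909 FPKM, which overlap. As shares of all FPKM in a library, complexes I and II overlapped between the lines, at 0.967% to 1.04% against 0.964% to 0.982% for complex I and 0.0723% to 0.0786% against 0.0664% to 0.0724% for complex II.

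The calls moved with the scaling of the libraries. Scaling each library to the same sum moved the median of all genes from 0.06 to 0.17. It gave 12 of 86 members higher and 10 lower, against 4046 and 2299 of 13703 genes. Upper-quartile scaling moved the median to 0.18. It gave 12 of 85 members higher and 9 lower, against 3725 and 2029 of 12651 genes. Relative to all genes, the members' median was lower by 0.11 and 0.09 under these scalings, and by 0.09 without scaling. This difference was -0.04 when a mean of at least 1 FPKM was required. Over the fits that left out 1 library it ran from -0.14 to -0.05. CYC1, UQCRB, NDUFB9 and COX6C were called lower under each of the 19 alternatives. Without MOLM-13 control replicate 1, 8 of 86 members were called higher and 12 lower, against 3289 and 2429 of 12699 genes.

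In JOA-treated cells the lines differed largely in the same genes. This is not an independent repeat, because the lines are the same. Control and JOA libraries of one replicate number also deviated together within a line. Of 86 members tested, 3 were called higher and 15 lower in THP-1, with 26.1% and 18.9% of all genes. By adjusted p alone 23 were higher and 35 lower, with 73.8% of all genes passing. The 3 genes called higher, NDUFC2-KCTD14, UQCRHL and UQCRH, were also among the 5 called in control cells, and 12 of the 15 called lower were among the 14 of control cells. The 3 further ones were UQCR11 (log2 fold change -0.79), NDUFA1 (-0.60) and NDUFA4L2 (-0.85). Without MOLM-13 JOA replicate 1, 7 of 86 members were called higher, against 3383 of 12663 genes. Without THP-1 JOA replicate 1, 6 of 85 members were, against 3187 of 12563 genes. In the latter case NDUFA4L2 had an adjusted p of 0.0505.

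JOA left the subunit genes of MOLM-13 cells without a detectable change. No gene of the table was called (0%), so the 0 of 84 members cannot be told from the background. The study itself reported genes changed in both directions in MOLM-13 by DESeq at these thresholds. None of them was called here, so this fit is no measure of whether JOA changed genes in MOLM-13. By limma's unadjusted p under 0.05, 0 members were higher and 0 lower, against 2.54% and 1.57% of all genes. The values of the JOA and control libraries did not overlap in 0 members upward and 2 downward, against 5.1% and 4.55% of all genes. These were NDUFS1, with 33.8, 32.2 and 32.7 FPKM in control and 29.0, 31.9 and 31.4 FPKM in JOA libraries, and ATP5S, with 1.38, 1.40 and 1.39 against 1.31, 1.11 and 1.22 FPKM. Their log2 fold changes were -0.10 ± 0.06 and -0.19 ± 0.11 (SE), each with an adjusted p of 1.00 by limma. The median of the 84 members was 0.00, the most negative value -0.19 and the most positive 0.09. With the replicate number as a block, 2 members, NDUFB6 and ATP5MC1, passed the unadjusted threshold, and 0.405 was the smallest adjusted p of a member by limma.

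In THP-1 cells the differences after JOA were small and mostly below 0. No member was called (0 of 86), while 17 of 12712 genes were (0.134%). The study reported many more changed genes in THP-1 by DESeq. Of the 86 members 64 lay below 0, against 5509 of 12712 genes (43.3%), and the members' median log2 fold change was -0.07, against 0.02 for all genes. By unadjusted p under 0.05, 4 were higher and 17 lower, while 10.9% of all genes were higher and 5.99% lower. These counts moved with the scaling, to 4 higher and 9 lower when scaled to the same sum, 2 and 21 by median-of-ratios scaling and 1 and 29 by upper-quartile scaling. Relative to all genes, the members' median was -0.09 without scaling and -0.09, -0.09 and -0.10 under these. Leaving out 1 library gave 11, 8 and 9 lower members without control replicate 1, 2 and 3, 10 without JOA replicate 1, and 14 without either other JOA library. The JOA and control libraries did not overlap upward in 4 members and downward in 20, against 14.6% and 8.81% of all genes. The medians were -0.06 in complex I, -0.07 in complexes II and IV, and -0.08 in complexes III and V. The summed levels of complexes I, IV and V were lower in every JOA library, at 2639 to 2858 FPKM against 2873 to 2961 FPKM, 2451 to 2787 FPKM against 2814 to 2909 FPKM, and 3255 to 3531 FPKM against 3640 to 3725 FPKM. Those of complexes II and III overlapped. As shares of all FPKM, complexes I and V remained separate, at 0.906% to 0.961% against 0.964% to 0.982% and 1.12% to 1.19% against 1.22% to 1.23%, and complex IV overlapped.

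NDUFB1, a small accessory subunit of complex I encoded on chromosome 14, was the one member with an adjusted p under 0.05, a level that 0.299% of all genes passed. It had 146, 137 and 138 FPKM in control and 92.0, 110 and 102 FPKM in JOA libraries, with every JOA value below every control value. Its log2 fold change was -0.48 ± 0.07 (SE, limma adjusted p = 0.0473), under the fold threshold. Over the alternatives its log2 fold change ran from -0.54 to -0.41 and its adjusted p from 0.0108 to 0.217, and it passed in 0 of the 6 fits that left out a library. In MOLM-13 the gene had 129, 118 and 147 FPKM in control and 151, 131 and 129 FPKM in JOA libraries, which overlap.

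Control and JOA libraries of one number deviated together, and with that number as a block 8.06% of all genes and 4 members had an adjusted p under 0.05. With the fold threshold as well, 81 genes of the table were called higher and 80 lower, but 0 members. ATP5ME, the e subunit in the membrane part of the synthase, had 405, 387 and 372 FPKM in control and 299, 324 and 326 FPKM in JOA libraries. Its log2 fold change was -0.29 ± 0.06 (SE), with a limma adjusted p of 0.0805 without the block and 0.0254 with it. ATP5MF, the f subunit beside it, had 287, 261 and 278 FPKM against 206, 241 and 230 FPKM, with a log2 fold change of -0.29 ± 0.07 (SE) and limma adjusted p of 0.104 and 0.0443. NDUFS4, an accessory subunit of the NADH-oxidizing module of complex I, went the other way, with 13.97, 14.56 and 14.81 FPKM against 16.2, 19.0 and 17.8 FPKM. Its log2 fold change was 0.29 ± 0.07 (SE), with limma adjusted p of 0.0978 and 0.0217. In all 3 genes the groups were separate. NDUFB1 had 0.0108 with the block.

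Other members were separate without passing. COX5B had 434, 408 and 441 FPKM in control and 316, 376 and 377 FPKM in JOA libraries (log2 fold change -0.27 ± 0.08 SE, limma adjusted p = 0.156 and 0.0538 with the block). NDUFB8, an accessory subunit of the complex I membrane arm, had 103, 104 and 101 FPKM against 88.1, 97.2 and 92.1 FPKM, with a log2 fold change of -0.16. The upward ones beside NDUFS4 were NDUFV3, SDHC and NDUFA12, with log2 fold changes of 0.20, 0.13 and 0.11. Among the catalytic and core subunits the log2 fold changes had either sign. They were -0.15 for ATP5F1A, -0.12 for CYC1, -0.11 for SDHA, -0.10 for NDUFV1, -0.07 for NDUFS1 and -0.05 for SDHB. ATP5F1B had -0.02 and changed sign when libraries were scaled to the same sum. UQCRC1 had 0.07, COX5A 0.03, COX4I1 0.01 and UQCRFS1 0.00. Of these genes, only ATP5F1A, CYC1 and NDUFS1 were separate between control and JOA libraries.

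**Figure D4:**
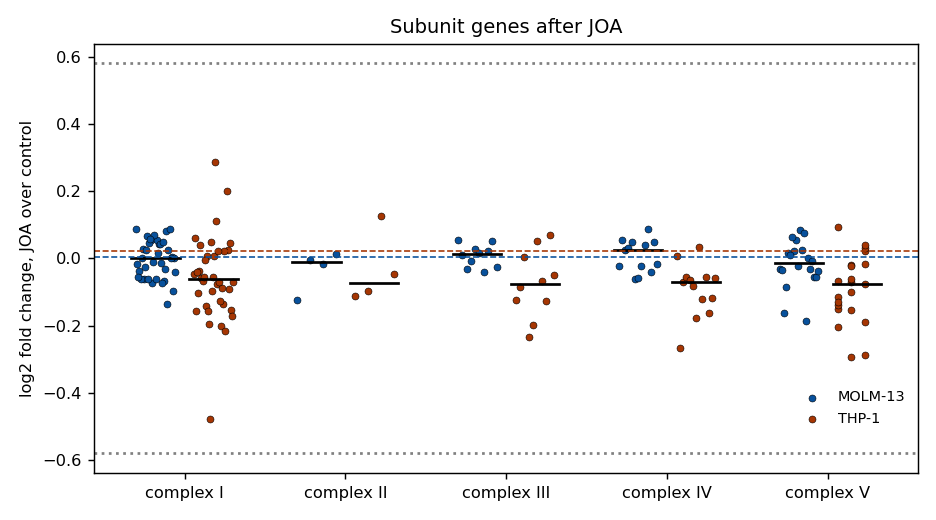
log2 fold change of JOA over control (vertical axis) for each tested subunit gene by complex, MOLM-13 in blue and THP-1 in brown, with a black bar at each median. Dashed lines are the medians of all genes in each line and dotted lines the fold threshold of 0.58. No point passes the threshold, and the THP-1 medians lie between -0.08 and -0.06.

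One library stood lower than the rest. THP-1 JOA replicate 1 had the lowest of the 3 JOA values in 61 of 86 members (70.9%), against 35.0% of all tested genes. Without it, 53 of 86 members lay below 0, and their median was -0.04, against 0.02 for all genes. Leaving out any other single THP-1 library kept between 63 and 70 members below 0. 

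Values of other short and abundant transcripts also lay below 0 in THP-1. All 77 cytosolic ribosomal protein genes lay below 0 after JOA, with a median log2 fold change of -0.17, and 11 had an adjusted p under 0.05 with the block. Genes with a coding length of up to 300 nucleotides had a median of -0.04, and those over 900 and up to 1800 nucleotides had 0.04. The members of these length classes had medians of -0.07 and -0.02, and those over 300 and up to 450 nucleotides had -0.11, against -0.02 for all genes of that class. The 78 mitochondrial ribosomal protein genes had a median of -0.03. The part of transcript length in the members' shift was not tested.

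Whether the response to JOA differed between the lines was tested by the interaction of line and treatment over all 12 libraries. No gene had an adjusted p under 0.05 by limma (0% of 12626), members included. By unadjusted p under 0.05, 1 member was higher and 7 were lower, against 7.24% of all genes in either direction. The 3 with the smallest p were NDUFB1, with an interaction of -0.54 ± 0.13 on the log2 scale (SE, limma adjusted p = 0.387), COX5B with -0.32 ± 0.11 (adjusted p = 0.545) and NDUFS4 with 0.35 ± 0.12 (adjusted p = 0.559). With the block, the adjusted p of NDUFB1 and of NDUFS4 was 0.0998, and 0 members passed. Over all genes, 3 higher and 3 lower passed with the block. A difference between the lines in the members' response was not detectable here.

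**Figure D5:**
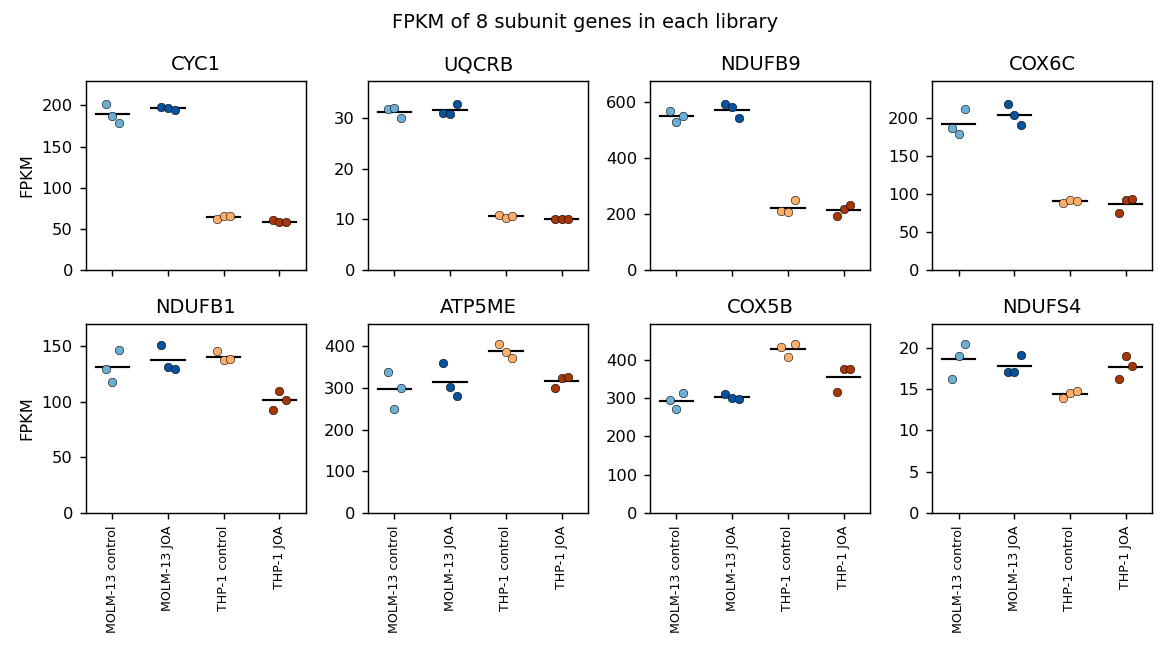
FPKM (vertical axis, from 0) of 8 subunit genes in each library, with 1 point per library and a bar at the mean of the 3 libraries of a group. The upper row shows the 4 genes of chromosome 8, where all MOLM-13 libraries lie above all THP-1 libraries, and the lower row shows genes whose THP-1 libraries separate by JOA treatment.

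The genes that build and serve the complexes were also compared between control cells of the lines. The counts of called genes stand beside 25% higher and 19% lower over all genes tested, with a median log2 fold change of 0.06. Of 17 complex I assembly factors, 2 were called higher and 6 lower in THP-1, and the median log2 fold change was -0.46. NDUFAF6, on chromosome 8, had -1.33, and the 2 higher ones were NDUFAF3 (1.13) and ACAD9 (0.75). Of 35 assembly factors of the other complexes, 4 were higher and 8 lower. The lowest were SDHAF3, which acts in the maturation of SDHB, with -2.36, and TMEM70, an ATP synthase assembly factor on chromosome 8, with -2.02. The median was -0.24, and the higher ones were ATPAF1 (1.44), COX20 (1.36), COA3 (0.75) and COA1 (0.65). Single genes of these lists were picked by the call after their values were seen.

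The lists of fuel oxidation, electron carriers, mitochondrial DNA, mitochondrial ribosomes and regulators are given beside the same shares. Of 21 genes of the TCA cycle and pyruvate entry (median -0.22), limma called 0 higher and 4 lower, with 6 and 12 by adjusted p alone. The called genes were PC (-1.81), SUCLG2 (-0.71) and, on chromosome X, PDHA1 (-0.82) and IDH3G (-0.82). Of 18 genes of electron carriers and nucleotide exchange (median -0.40), 7 were lower and 0 higher, with 11 and 2 by adjusted p alone. The called genes were VDAC3 on chromosome 8 (-1.60), SLC25A6 (-0.96) and SLC25A5 on chromosome X, and COQ8A, COQ4, PDSS2 and SLC25A3 on other chromosomes. SLC25A5, an ADP/ATP carrier, had a mean of 352 FPKM in MOLM-13 and 190 FPKM in THP-1. Of 15 genes of mitochondrial DNA maintenance and transcription (median -0.36), 3 were lower and 0 higher, with 11 and 0 by adjusted p alone. The called genes were MTERF3 on chromosome 8 (-1.44), TFB1M (-0.90) and SSBP1 (-0.69). Of 78 mitochondrial ribosomal protein genes (median -0.25), 21 were lower and 2 higher. Among 12 tested regulators of mitochondrial biogenesis (median 0.30), 3 were higher and 0 lower, with 6 and 3 by adjusted p alone. YY1 had 0.60 and the AMPK subunit PRKAA1 0.60, and the coactivator PPARGC1A, which passed the filter on low values through THP-1 alone, had a mean of 0.489 FPKM in THP-1 and 0.00251 FPKM in MOLM-13. After JOA, limma called 0 of the 195 genes of these 7 lists tested in MOLM-13 and 0 of 196 in THP-1. By unadjusted p under 0.05 there were 1 higher and 2 lower in MOLM-13, against 2.54% and 1.57% of all genes, and 4 higher and 10 lower in THP-1, against 10.9% and 5.99%.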

How the data were processed

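The labels give the line, treatment, dose, time and replicate number of each of the 12 samples. The authors deposited 1 table of FPKM values per gene and library from stranded mRNA libraries. The submitters' processing notes name Trimmomatic, HISAT2, Cufflinks, HTSeq and hg38 without versions, and no scaling between libraries beyond FPKM is stated. The study's methods use DESeq, which needs counts and was not run.

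FPKM values were used as deposited, with a pseudocount of 0.1 and a minimum mean of 0.1 FPKM over the libraries of a fit. All genes were fitted together by limma 3.58.1 under R 4.3.3, with a mean-variance trend in eBayes, 3 libraries per group. The interaction was called on the adjusted p alone. Members, gene lists and named genes were chosen with earlier results of these data known. Named genes were catalytic subunits and isoform sets, the 10 largest called differences between lines, the 5 smallest p per direction after JOA without overlap, and the 3 smallest interaction p. Further genes were named after their values were seen. A catalytic subunit covered by this rule is not reported here.

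The methods state no pairing of control and JOA libraries, but libraries of one replicate number deviated together within a line. Deviations from group means correlated at 0.234 to 0.385 for same numbers in MOLM-13 and 0.145 to 0.322 in THP-1, and at -0.257 to 0.0245 and -0.255 to -0.0296 for different numbers. Centering on group means by itself pulls the values of different numbers down where those of same numbers are above 0. Relative depth, from the steps between low values with a resolution of about 3%, was 0.864 to 1 in MOLM-13 and 0.936 to 1.07 in THP-1, relative to control replicate 1. On simulated libraries with 200 changed genes, 97% of 100 genes changed by a log2 fold change of 1 were recovered in MOLM-13 (11687 genes, 5 false calls) and 96% in THP-1 (12717 genes, 5 false calls). Between control cells of the lines 87% were recovered (12492 genes, 3 false calls), and for the interaction 82% (12497 genes, 3 false calls). The simulated noise was independent between libraries. Changes smaller than a log2 fold change of 1 were not simulated, so their recovery is unknown.

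Positions, coding lengths and promoters come from RefSeq GRCh38.p14 and GENCODE. The table holds 27 names that look like dates, which were kept. Figures used Python 3.11.15. Alternatives covered the pseudocount, filter, scaling, trend, block, thresholds, a fit over 12 libraries and each left-out library.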

Additional observations from a re-analysis of the deposited data

How the results depend on the processing

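The 4 differences of chromosome 8 kept their call under the 19 alternatives run for each line comparison. Counts of called members moved more. In control cells the higher count was 12 when scaled to the same sum, 12 under upper-quartile scaling, 29 by adjusted p alone and 1 with a log2 fold of at least 1, and leaving out 1 library gave 4 to 8. The lower count was 9, 30 and 5 under upper-quartile scaling, adjusted p alone and the larger fold. Over all genes, 4046 of 13703 were higher when scaled to the same sum and 3725 of 12651 under upper-quartile scaling. By adjusted p alone 71.2% of all genes passed. In JOA-treated cells the higher count of members was 13 scaled to the same sum, 7 under upper-quartile scaling, 23 by adjusted p alone and 1 with the larger fold. Leaving out 1 library gave 3 to 7. The lower count was 35 by adjusted p alone and 5 with the larger fold. Over all genes, 4370 of 13643 were higher when scaled to the same sum and 3724 of 12624 under upper-quartile scaling. By adjusted p alone 73.8% of all genes passed. For THP-1 after JOA, adjusted p alone gave 1 lower, and the replicate block with no minimum fold, chosen after the data were seen, gave 1 higher and 3 lower. For the interaction, unadjusted p gave 1 higher and 7 lower. With a pseudocount of 1 the lower members between the lines fell from 14 to 11 in control cells and from 15 to 12 in JOA-treated cells. The higher ones stayed at 5 in control cells and fell from 3 to 2 in JOA-treated cells. Over all genes, 2190 were higher and 1761 lower in control cells, and 2265 and 1764 in JOA-treated cells. The members that lost their call included ATP5S and, after JOA, NDUFA4L2 and NDUFC2-KCTD14. NDUFA4L2 also lost it in 1 fit over 12 libraries. Over all alternatives run, no member with an adjusted p under 0.05 changed direction. Without passing it, COX4I1 ran from -0.06 to 0.18 and COX5A from -0.11 to 0.06 between control lines, and ATP5F1B from -0.07 to 0.00 in THP-1 after JOA.

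Across lines the shared numbers pair nothing by design, and same numbers correlated at 0.0749 to 0.132 in control and 0.00338 to 0.108 in JOA libraries. With this replicate block, 15 rather than 14 members were lower in control cells. The block changed no other call at the fold threshold. Total depth is unknown, 3 libraries a group allow an exact permutation p of 0.1 at best for a single value, and differences under the fold threshold were not called.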
